A study of Mus musculus with 24 samples.

Results

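Mature microRNAs (miRNAs) were compared between livers of male C57BL/6 mice on a high-fat diet that received HQHF, the Huatanqushihuoxue Formula, and livers of mice on the high-fat diet alone. HQHF was given by gavage after 12 weeks of the high-fat diet, and a further group of mice was kept on a normal diet. The study gave HQHF at several doses, and which of them these livers received is not stated. All mice were wild type, and every library had a batch code of its own, shared only with the long RNA library of the same mouse. The libraries were chosen by their level of miR-122-5p, and the comparison used 7 of the 12 small RNA libraries of the series, namely HFD 1, 2, 3 and 4 (high-fat diet) and HQHF 1, 2 and 4 (high-fat diet with HQHF).

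HQHF 3 was left out because its miR-122-5p, the miRNA that dominates hepatocytes, was at 134 CPM (counts scaled to a common library total), under the minimum of 1000 CPM. Control 2, at 316 CPM, was left out of the normal diet group by the same minimum. The nearest library above the minimum, HFD 4, was at 333000 CPM. The long RNA library of HQHF 3 held 0.743 CPM of Alb, the albumin transcript of hepatocytes, and 1250 CPM of Adipoq, the adiponectin transcript of fat cells. In the 7 libraries used, Alb was at 35100 to 76300 CPM and Apoa1 at 3230 to 6650 CPM, as the liver label implies. With HQHF 3 and control 2 both left out, 81 miRNAs passed the test, and with both added 2 did; adding HQHF 3 alone was not run.

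miRNAs are short RNAs cut from hairpin precursors, and each hairpin can give a 5p and a 3p strand. A miRNA loaded on an Argonaute protein pairs with target mRNAs mainly through its seed, bases 2 to 8, and lowers their translation and stability. In liver, miR-122 and the miR-192 and miR-194 cluster mark hepatocytes, miR-33 sits within the gene of the sterol regulator Srebf2 and restrains cholesterol export, miR-34a is induced by p53 and in fatty liver, and miR-29 restrains collagen synthesis.

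The sequences of the miRNAs the results turn on are given from RefSeq (build GRCm38.p6), 5′ to 3′, with the seed in capitals. The first set is of miRNAs that were higher with HQHF, shown because several share a seed.
miR-192-5p: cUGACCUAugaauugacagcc
miR-192-3p: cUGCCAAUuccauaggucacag
miR-194-5p: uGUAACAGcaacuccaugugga
miR-101b-3p: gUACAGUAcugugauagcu
miR-101a-3p: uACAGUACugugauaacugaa
miR-29a-3p: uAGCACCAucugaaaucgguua
miR-29b-3p: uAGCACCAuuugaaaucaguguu
miR-29c-3p: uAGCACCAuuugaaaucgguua
miR-30a-5p: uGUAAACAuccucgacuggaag
miR-30c-5p: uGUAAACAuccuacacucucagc
miR-30e-5p: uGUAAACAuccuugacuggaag
miR-33-5p: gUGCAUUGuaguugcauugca

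The second set is of miRNAs that were lower with HQHF, and none of these 10 shares its seed with another of the set.
miR-34a-5p: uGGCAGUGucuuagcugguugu
miR-582-5p: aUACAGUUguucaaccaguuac
miR-582-3p: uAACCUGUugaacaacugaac
miR-214-3p: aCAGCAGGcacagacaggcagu
miR-199a-3p: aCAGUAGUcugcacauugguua
miR-155-5p: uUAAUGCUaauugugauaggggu
miR-223-3p: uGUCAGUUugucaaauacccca
miR-342-3p: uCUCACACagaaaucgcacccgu
miR-132-3p: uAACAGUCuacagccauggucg
miR-146b-5p: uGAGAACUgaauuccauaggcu

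The third set is of 3 let-7 members with 1 shared seed that differed in direction.
let-7e-5p: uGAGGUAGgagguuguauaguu
let-7i-5p: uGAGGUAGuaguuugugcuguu
let-7g-5p: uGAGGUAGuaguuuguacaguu

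The 7 libraries held 8644573 to 12813806 counts. Of 1291 entries in the table, 406 had enough counts to be tested by edgeR's quasi-likelihood test, fitted with 3 normal diet libraries and scaled by TMM (trimmed mean of M-values, which sets the libraries level over most miRNAs). With Benjamini-Hochberg adjustment and an adjusted p under 0.05, 81 miRNAs (20%) changed, of which 43 (10.6%) rose and 38 (9.36%) fell with HQHF. Levels of the HQHF and HFD libraries did not overlap for 38.2% of the miRNAs, 77 (19%) being higher and 78 (19.2%) lower with HQHF. The median log2 fold change over the 406 was -0.13. Scaled by library totals instead, the median was -0.72 and only 7 calls were higher against 140 lower, so a rise below is relative to the other miRNAs. Under library totals, which moved the values down as a whole, 35 of the 43 that rose kept their direction. All 38 that fell did so too, but a downward shift could not turn them, so this is no test of the falls.

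The number of calls depended on single libraries. It was 3, 4 and 9 without HQHF 1, 2 and 4, where 2 HQHF libraries remain, and 17 without HFD 1, and in each of these fits all calls that were tested kept their direction. Of the 46 called miRNAs picked by the naming rule, 3 passed in all 10 fits that left out 1 library: miR-192-3p, miR-101b-3p and miR-29c-3p. The others passed in fewer, mainly failing without an HQHF library. miR-34a-5p had an adjusted p of 0.0681 and 0.0736 without HQHF 1 and 2, miR-192-5p of 0.0531 and 0.0736 without the same libraries, and miR-582-3p of 0.0528 and 0.0516 without HQHF 1 and 4.

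**Figure D1:**
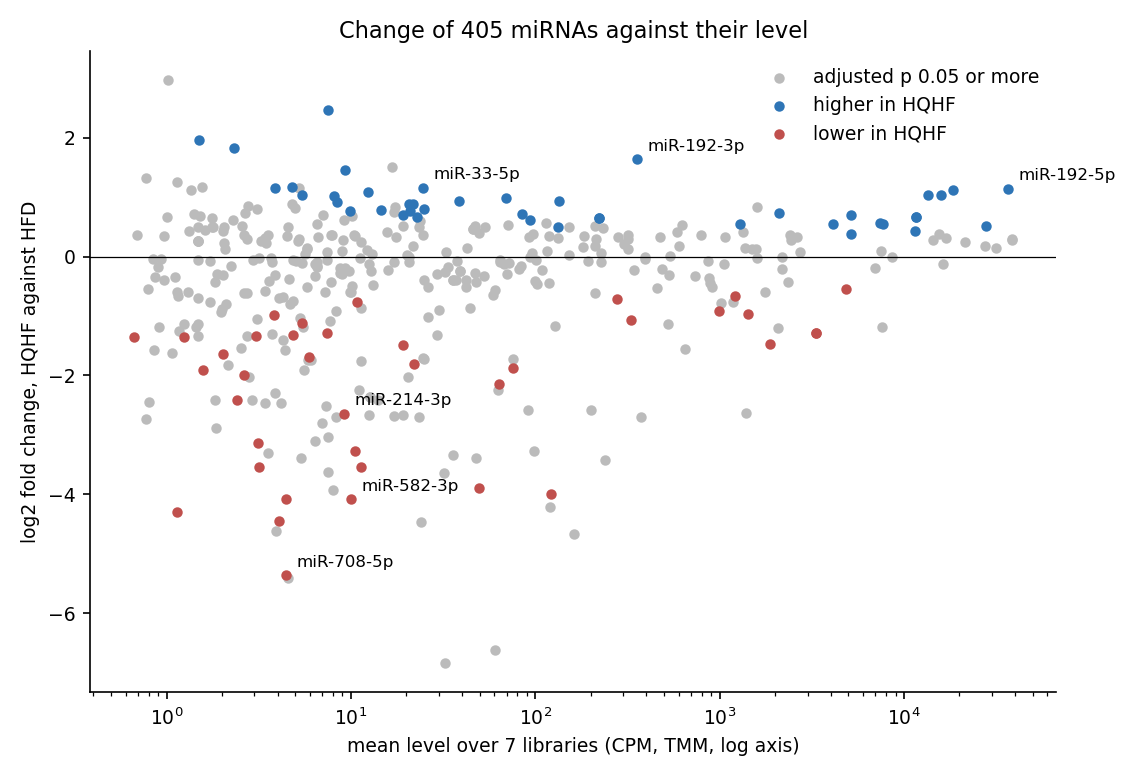
Log2 fold change of HQHF against HFD (vertical axis) against the mean level over the 7 libraries (horizontal axis, CPM after TMM scaling, log axis) for 405 tested miRNAs, miR-122-5p being left out. Blue points are the 43 that rose, red points the 38 that fell, and grey points did not pass the test; among the most abundant miRNAs the coloured points are mainly blue.

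The miRNAs that rose were mostly more abundant than those that fell. The median of the mean levels was 84.5 CPM over the 43 that rose, 9.59 CPM over the 38 that fell and 15.1 CPM over all 406. The median GC content was 44.5% for those that rose, 43.5% for those that fell and 45.5% for all with a RefSeq sequence, and the median length was 22 bases in each of these sets.

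miR-122-5p itself was used to choose the libraries, so its values are a description. It took 43.3%, 48.4%, 36.7% and 33.3% of the counts in HFD 1 to 4 and 48.7%, 50.6% and 51.2% in HQHF 1, 2 and 4. Its share was thus lowest in HFD 3 and HFD 4. The exact binomial 95% interval was 48.6% to 48.7% in HQHF 1, which covers counting error only. The other strand, miR-122-3p, did not pass the test (log2 fold change 0.30 ± 0.30 SE, edgeR adjusted p = 0.458).

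The miRNAs of the miR-192 and miR-194 hairpins, which hepatocytes and gut epithelium express, rose on both strands. miR-192-5p was at 27432, 30448, 22632 and 16552 CPM in HFD 1 to 4 and at 53210, 57039 and 50320 CPM in HQHF 1, 2 and 4. Every HQHF library was above every HFD library, by 2.21-fold in the means (log2 fold change 1.14 ± 0.20 SE, edgeR adjusted p = 0.013). miR-192-3p was at 180, 226, 203 and 134 CPM in HFD and at 583, 590 and 569 CPM in HQHF. This 3.13-fold difference gave the smallest p of all miRNAs (log2 fold change 1.64 ± 0.18, edgeR adjusted p = 0.003). miR-194-5p was at 11720, 14039, 10534 and 7400 CPM in HFD and at 21192, 24993 and 21160 CPM in HQHF (log2 fold change 1.04 ± 0.20, edgeR adjusted p = 0.0155). All 4 tested strands of the cluster rose, miR-194-2-3p by 0.88. Under library totals miR-192-5p, miR-192-3p and miR-194-5p stayed called, at log2 fold changes of 0.60, 1.09 and 0.50.

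The Mir192 hairpin, from RefSeq, shows the position of both strands in capitals.
Mir192: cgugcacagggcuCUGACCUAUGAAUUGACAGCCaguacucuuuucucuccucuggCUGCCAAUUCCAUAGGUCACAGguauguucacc

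miR-101b-3p, which targets the histone methyltransferase Ezh2, was the second most significant. It was at 12679, 14928, 11973 and 9476 CPM in HFD 1 to 4 and at 28441, 26042 and 25385 CPM in HQHF 1, 2 and 4 (log2 fold change 1.12 ± 0.14, edgeR adjusted p = 0.0043). miR-101a-3p, whose seed is that of miR-101b-3p moved by 1 base, rose less, by 0.67 ± 0.14 (edgeR adjusted p = 0.0176). The entry miR-101c held almost the same counts as miR-101a-3p, so the 2 cannot be told apart. Rcl1, the protein-coding gene that holds Mir101b on the same strand in RefSeq, rose in the long RNA of the same mice: 72.6, 65.4, 78.0 and 51.5 CPM in HFD against 123, 119 and 123 CPM in HQHF (log2 fold change 0.86 ± 0.16, edgeR adjusted p = 0.00791). Under library totals Rcl1 was at 0.31 and no longer called, with adjusted p = 0.209.

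Of 10 other miRNAs in a list of hepatocyte miRNAs, 6 rose and none fell, where 10.6% of all tested miRNAs rose and 9.36% fell. The list's median log2 fold change was 0.55 against -0.13 over all tested. The 6 were miR-192-5p, miR-194-5p, miR-101a-3p, miR-101b-3p, miR-22-3p and miR-30a-5p. The other 4 were miR-455-3p at -1.01, miR-802-5p at -0.13, miR-148a-3p at 0.28 and miR-122-3p at 0.30. Under library totals 3 of the 10 were higher and 1 lower, with a median of -0.01. Without HFD 1, 3 of the 10 rose, and without HQHF 1, 2 or 4, 1, 1 and 2 did. In bulk liver, a larger share of hepatocyte RNA and more of these miRNAs per hepatocyte cannot be told apart. The hepatocyte transcripts Alb, Apoa1 and Ttr overlapped between the groups. Alb was at 35100 to 76300 CPM of the library total in HFD and 42200 to 64200 CPM in HQHF.

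**Figure D2:**
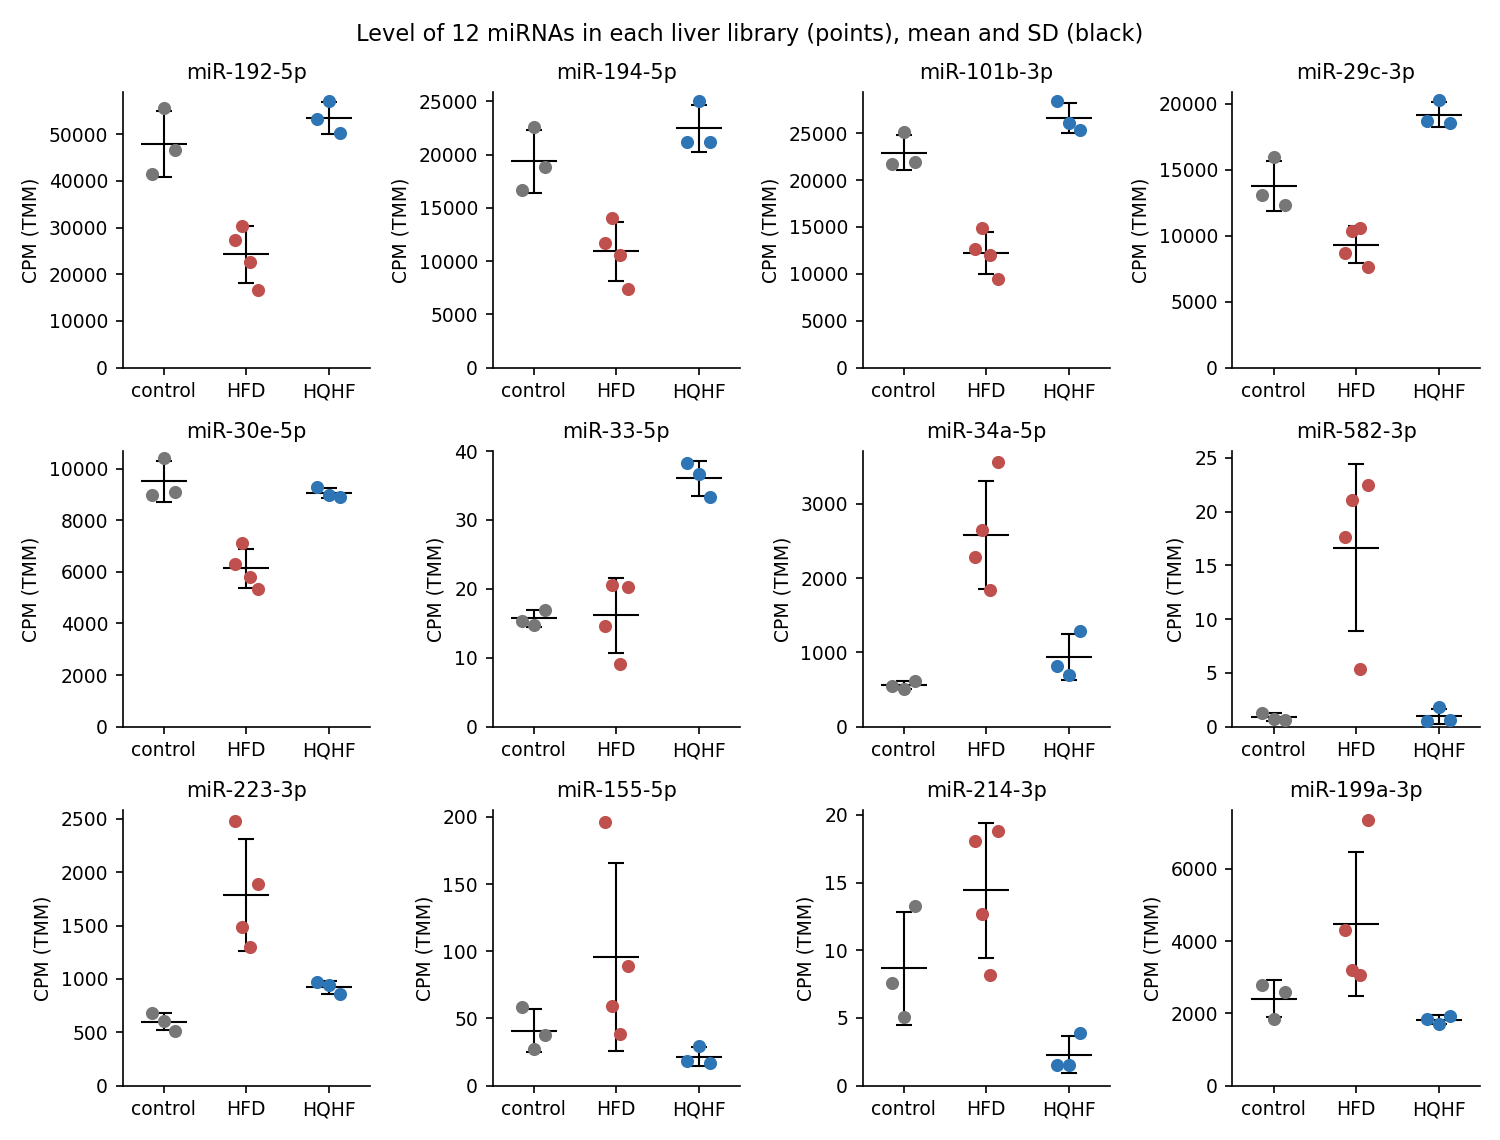
Level of 12 miRNAs (CPM after TMM scaling, 1 panel each, axes from 0) in control, HFD and HQHF libraries; points are libraries and black bars the mean and SD of 3, 4 and 3 libraries. In each panel the HQHF points lie wholly above or wholly below the HFD points. The 12 were picked from the called miRNAs, and over all tested miRNAs 38.2% did not overlap.

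The 3 miR-29 members that share the seed AGCACCA rose together. miR-29 lowers collagen, elastin and fibrillin mRNAs and is known to fall in activated hepatic stellate cells, the collagen-making cells of the liver. miR-29c-3p was at 8660, 10354, 10553 and 7631 CPM in HFD 1 to 4 and at 18698, 20243 and 18562 CPM in HQHF 1, 2 and 4. It was 2.06-fold higher (log2 fold change 1.04 ± 0.14, edgeR adjusted p = 0.0043) and stayed called under library totals at 0.47. miR-29a-3p, which differs from miR-29c-3p only by C10U counted from the 5′ end of miR-29a-3p, was far more abundant, at 19810 to 26167 CPM in HFD and 32095 to 35303 CPM in HQHF. It rose by 0.52 ± 0.13 and miR-29b-3p by 0.54 ± 0.16 (edgeR adjusted p = 0.0222 and 0.043), and both were slightly lower under library totals, at -0.10 and -0.05. The passenger strands did not pass: miR-29c-5p was at 0.50 and miR-29a-5p at -0.25. Without HFD 1 or any 1 HQHF library, miR-29c-3p alone of the 3 was called.

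The miR-30 family, which restrains epithelial to mesenchymal change and fibrosis programmes, had 4 of 10 tested members higher and none lower, with a median of 0.42. Over all tested miRNAs 10.6% were higher and 9.36% lower. miR-30e-5p was at 6295, 7118, 5789 and 5352 CPM in HFD and at 9280, 8972 and 8899 CPM in HQHF (log2 fold change 0.56 ± 0.11, edgeR adjusted p = 0.0174). miR-30c-5p rose by 0.70, miR-30c-2-3p by 0.72 and miR-30a-5p by 0.43. Under library totals the family's median was -0.15, with miR-30e-5p at -0.01 and miR-30a-5p at -0.13, so its direction depended on the scaling. miR-30d-5p, the remaining abundant member, was at 0.07 (edgeR adjusted p = 0.594). Mir30c-1 and Mir30e lie in Nfyc, whose transcript was at 0.06 (edgeR adjusted p = 0.753), with 15.9 to 18.6 CPM in HFD and 16.1 to 18.4 CPM in HQHF. No miR-30 miRNA passed without HFD 1 or without any 1 HQHF library (edgeR).

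The let-7 family, which restrains growth genes such as Hmga2, split within 1 seed. let-7e-5p was at 1129, 1298, 1353 and 1187 CPM in HFD 1 to 4 and at 616, 614 and 750 CPM in HQHF 1, 2 and 4. It fell by 0.91 ± 0.13 on the log2 scale (edgeR adjusted p = 0.00659), and let-7i-5p fell by 0.54 ± 0.14 (edgeR adjusted p = 0.0266). Library totals, which moved the values down as a whole, put them at -1.50 and -1.15 and so could not turn these falls. let-7g-5p, named after its values were seen, rose by 0.55 ± 0.16 (edgeR adjusted p = 0.0429) but was at -0.01 under library totals. The other 6 members tested with this seed lay between -0.13 and 0.24 and did not pass. No member was higher under library totals (5 lower), without HFD 1 (1 lower), without HFD 4 (2 lower) or without HQHF 1, 2 or 4 (0, 0 and 1 lower), so the rise within the family was lost in each of these fits. let-7g-5p and let-7e-5p differ at 3 positions, U9G, U12G and C18U, counted from the 5′ end of let-7g-5p, and let-7g-5p and let-7i-5p at A17G and A19U.

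The ratio of let-7g-5p to let-7e-5p needs no scaling between libraries. It was 5.24, 6.18, 5.03 and 4.23 in HFD 1 to 4 and 14.3, 16.2 and 12.8 in HQHF 1, 2 and 4. The mean log2 ratio was 2.36 ± 0.22 (SD, n = 4) in HFD and 3.84 ± 0.17 (SD, n = 3) in HQHF, a change of 1.49 (exact permutation test, two-sided p = 0.0571, the smallest that 4 against 3 libraries allows). Control 1, 3 and 4 had ratios of 11.8, 11.4 and 9.96. The left-out HQHF 3 had a ratio of 6.21 and the left-out control 2 one of 1.36. The pair was chosen after its opposite directions were seen, so the ratio describes the split and is no further evidence for it.

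**Figure D3:**
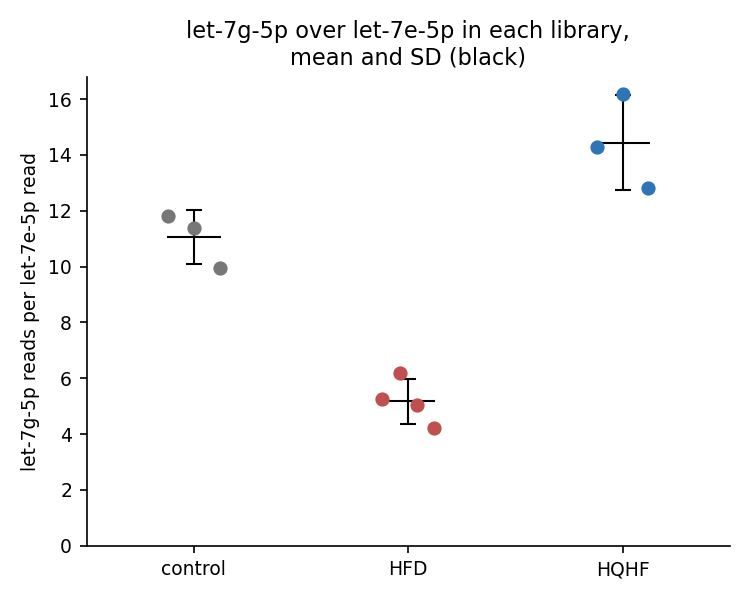
Reads of let-7g-5p per read of let-7e-5p (vertical axis, from 0) in control, HFD and HQHF libraries; points are libraries and black bars the mean and SD. The HFD points lie between 4.23 and 6.18 and the HQHF points between 12.8 and 16.2.

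Among miRNAs linked to steatosis and lipid handling, 3 of 23 tested rose and 4 fell, where 10.6% of all tested miRNAs rose and 9.36% fell. The list's median was -0.13, the same as over all tested. Under library totals none rose and 11 fell, with a median of -0.72. The counts were 0 and 2 without HFD 1, 3 and 8 without HFD 3, and at most 1 without any 1 HQHF library. miR-33-5p, which represses the cholesterol exporter Abca1 and genes of fatty acid oxidation, was at 14.6, 20.6, 9.16 and 20.2 CPM in HFD 1 to 4 and at 38.2, 36.6 and 33.3 CPM in HQHF 1, 2 and 4. It rose 2.23-fold (log2 fold change 1.16 ± 0.27, edgeR adjusted p = 0.0218), also lay above the control libraries at 14.7 to 17.0 CPM, and under library totals was at 0.58 (adjusted p = 0.154). Without HFD 1, HQHF 1, HQHF 2 or HQHF 4 its adjusted p was 0.0661, 0.0803, 0.0736 or 0.0621. Its host transcript Srebf2 was at 43.1, 53.4, 23.6 and 36.5 CPM in HFD and at 23.6, 21 and 40.5 CPM in HQHF. The groups overlapped (log2 fold change -0.46 ± 0.31, edgeR adjusted p = 0.306).

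The other lipid-linked miRNAs that rose were miR-378a-5p, from the gene of the mitochondrial coactivator PGC-1β, by 0.94, and miR-27b-3p, a regulator of lipid genes, by 0.38. miR-378a-3p, the more abundant strand of the same hairpin, was at 0.32 (edgeR adjusted p = 0.506). Under library totals miR-378a-5p was at 0.34 (edgeR adjusted p = 0.36). miR-27b-3p was at -0.23 under library totals, and miR-27a-3p, which has the same seed UCACAGU, was at -0.45 (edgeR adjusted p = 0.0631). miR-802-5p, which is known to rise in obese liver and impair insulin sensitivity, overlapped between the groups, at 738, 1455, 1015 and 1202 CPM in HFD and 778, 1368 and 885 CPM in HQHF. miR-21a-5p, the second most abundant miRNA and a known driver of steatosis and fibrosis, overlapped as well, at 19203 to 50904 CPM in HFD and 33010 to 53640 CPM in HQHF (log2 fold change 0.29 ± 0.31, edgeR adjusted p = 0.483). Its sign turned under library totals, at -0.24.

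miR-34a-5p, which represses the deacetylase Sirt1 and is raised in human and mouse fatty liver, was the most abundant of the lipid-linked miRNAs that fell. It was at 2279, 2653, 1847 and 3561 CPM in HFD 1 to 4 and at 824, 701 and 1283 CPM in HQHF 1, 2 and 4. The fall of 1.47 ± 0.27 on the log2 scale (edgeR adjusted p = 0.0144) left HQHF above the control libraries, which held 551, 511 and 612 CPM (HQHF minus control 0.75, edgeR adjusted p = 0.12). miR-34a-3p, the rare strand of the same hairpin, fell by 1.35 ± 0.37 (edgeR adjusted p = 0.0372). miR-34b-5p and miR-34c-5p, from another hairpin pair and highest in HFD 3, were at -2.42 and -2.67 (edgeR adjusted p = 0.0525 and 0.0587). The median of the 8 p53-induced miRNAs tested was 0.01. Of these 8, 1 fell, miR-34a-5p, and 2 rose, miR-192-5p and miR-194-5p, where 9.36% of all tested miRNAs fell and 10.6% rose. None of these 3 was called without HQHF 1 or without HQHF 2 (edgeR).

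miR-582 showed the largest differences among the 10 miRNAs with the smallest p values. Its Mir582 hairpin, with both strands in capitals, is given from RefSeq.
Mir582: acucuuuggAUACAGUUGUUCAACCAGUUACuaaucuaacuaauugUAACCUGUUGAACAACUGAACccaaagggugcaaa

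miR-582-3p was at 17.6, 21.1, 5.4 and 22.5 CPM in HFD 1 to 4 and at 0.508, 1.79 and 0.643 CPM in HQHF 1, 2 and 4. In reads, that is 934 over the HFD libraries against 22 over the HQHF libraries, a 16.9-fold difference in mean level (log2 fold change -4.08 ± 0.65, edgeR adjusted p = 0.0106). miR-582-5p was at 4.64, 9.08, 1.49 and 5.77 CPM in HFD and at 0.254, 0.551 and 0.514 CPM in HQHF, from 282 and 10 reads (log2 fold change -3.54 ± 0.64, edgeR adjusted p = 0.0144). Both strands were near the HQHF level in the control libraries, at 0.641 to 1.30 CPM and 0.130 to 0.291 CPM. Both passed the count filter only through the HFD libraries, so their tests could hardly have come out higher with HQHF. The 2 strands were also the 2 miRNAs still called when all 12 libraries entered the fit. The transcript of Pde4d, the phosphodiesterase gene that holds Mir582, was at 13, 13.6, 17 and 27.6 CPM in HFD and 12.2, 12.9 and 17.0 CPM in HQHF (log2 fold change -0.34 ± 0.25, edgeR adjusted p = 0.349).

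Of 16 miRNAs in a list of immune cell miRNAs, 7 fell and 1 rose, where 9.36% of all tested miRNAs fell and 10.6% rose. The list's median was -1.01 against -0.13 over all tested. miR-223-3p, the main miRNA of neutrophils and other myeloid cells, was at 2485, 1487, 1300 and 1890 CPM in HFD 1 to 4 and at 967, 944 and 856 CPM in HQHF 1, 2 and 4. It fell by 0.96 ± 0.22 (edgeR adjusted p = 0.0218), and its other strand miR-223-5p by 1.28 ± 0.38 (edgeR adjusted p = 0.0456). miR-155-5p, induced in activated macrophages and lymphocytes, was at 196, 58.9, 38.4 and 88.8 CPM in HFD and at 18.4, 29.5 and 17.0 CPM in HQHF. The groups did not overlap and HFD 1 was the highest (log2 fold change -2.14 ± 0.57, edgeR adjusted p = 0.0355).

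miR-146b-5p, which dampens NF-κB signalling, was at 96.1, 61.4, 64.6 and 220 CPM in HFD and at 35.1, 23.4 and 31.8 CPM in HQHF, and fell by 1.88 ± 0.45 (edgeR adjusted p = 0.0222). Its paralogue miR-146a-5p, with the same seed, was at 0.00 ± 0.21 (edgeR adjusted p = 0.99), with 1622 to 2906 CPM in HFD and 2064 to 2317 CPM in HQHF. miR-342-3p, a lymphoid and monocyte miRNA, fell by 1.06 ± 0.23 and miR-342-5p by 2.42 ± 0.57 (edgeR adjusted p = 0.0176 and 0.0219). Evl, the actin regulator gene that holds Mir342, fell too, from 12.2, 7.17, 8.96 and 11.4 CPM in HFD to 3.99, 4.12 and 3.16 CPM in HQHF (log2 fold change -1.40 ± 0.24, edgeR adjusted p = 0.00646).

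miR-132-3p and miR-132-5p, of the miR-132 and miR-212 cluster that is induced by CREB, fell by 1.48 and 2, and miR-147-3p by 4.07. The fall of miR-147-3p had HFD 1 at 23.3 CPM and the other 3 HFD libraries at 0.842 to 3.44 CPM. The immune miRNA that rose was miR-511-5p, from the gene of the macrophage mannose receptor, by 0.91 ± 0.23 (edgeR adjusted p = 0.0304). Its other strand, miR-511-3p, was at -0.09 (edgeR adjusted p = 0.862). Under library totals miR-511-5p was at 0.30 (edgeR adjusted p = 0.429). Clec4f, the marker transcript of resident Kupffer cells, overlapped between the groups, at 61.5 to 115 CPM in HFD and 107 to 158 CPM in HQHF. miR-142a-3p, carried by all blood cells, was at 4068, 3315, 1019 and 2505 CPM in HFD and at 1450, 1083 and 1007 CPM in HQHF, and did not pass (edgeR adjusted p = 0.0608). Without HFD 1 only 1 immune miRNA was lower at the threshold and without HFD 4 only 4, and leaving out any 1 HQHF library left none.

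Of 23 miRNAs tied to stellate cells and fibrosis, 4 fell and 3 rose, where 9.36% of all tested miRNAs fell and 10.6% rose. The 3 were the miR-29 members above, and the list's median was -0.41. Under library totals 10 fell and 1 rose, with a median of -1.02. Of the 4 that fell, 3 are made by the cluster of Mir199a-2 and Mir214, which activated stellate cells express. The reads of 1 of these, miR-199a-3p, cannot be assigned to this cluster alone. miR-214-3p was at 18.1, 12.7, 8.17 and 18.8 CPM in HFD 1 to 4 and at 1.52, 1.51 and 3.86 CPM in HQHF 1, 2 and 4, a fall of 2.64 ± 0.51 on the log2 scale (edgeR adjusted p = 0.0155). It was also below the control libraries, which held 7.56, 5.10 and 13.3 CPM. miR-214-5p fell by 1.69 ± 0.50 (edgeR adjusted p = 0.0448).

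miR-199a-3p and miR-199b-3p held identical counts, so they were 1 measurement listed under both names. They were at 4293, 3207, 3048 and 7343 CPM in HFD and at 1848, 1698 and 1930 CPM in HQHF, and fell by 1.29 ± 0.31 (edgeR adjusted p = 0.0222). miR-199a-5p was at 805, 890, 652 and 2617 CPM in HFD and at 785, 678 and 707 CPM in HQHF. Its groups overlapped and it did not pass (log2 fold change -0.78 ± 0.47, edgeR adjusted p = 0.227). The fourth that fell was miR-708-5p, at 10.7, 2.25, 14.9 and 2.88 CPM in HFD, with 442 reads against 4 in HQHF (log2 fold change -5.36 ± 1.5, edgeR adjusted p = 0.0418). With 4 reads there, miR-708-5p could not have passed the count filter through the HQHF libraries. Without HFD 1, 1 of the 23 was lower, and without HQHF 1, 2 or 4, 0, 0 and 1 were.

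Several miRNAs were higher in particular HFD libraries than in the rest of the group. A list of the miR-200 family and other epithelial miRNAs, which in liver mark the bile ducts, had a median of -3.14 over 9 tested. Of these, 3 fell, miR-200b-5p, miR-200c-3p and miR-205-5p, where 9.36% of all tested miRNAs did. miR-200b-3p was at 1158, 185, 54.6 and 956 CPM in HFD 1 to 4 and at 101, 85.4 and 85.3 CPM in HQHF 1, 2 and 4, so the groups overlapped (log2 fold change -2.70 ± 0.90, edgeR adjusted p = 0.0608). In the long RNA, the bile duct transcripts Epcam, Krt19 and Krt7, added after these values were seen, were also highest in HFD 1 and HFD 4. Epcam was at 10.4, 2.37, 0.525 and 28.9 CPM in HFD and 0.576 to 0.992 CPM in HQHF. Without HFD 1, without HFD 4 or without any 1 HQHF library, no member of the list passed, and without HFD 3 all 9 did. The part of bile duct content in these differences was not tested.

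HFD 3 stood apart for another set. The maternally expressed miRNAs of the imprinted Dlk1-Dio3 region, low in adult liver, had a median of -2.67 over 25 tested, with 1 called, miR-136-5p, at 3.45, 2.06, 21.5 and 0.552 CPM in HFD and 0.127, 0.413 and 0.386 CPM in HQHF. Without HFD 3 the list's median was -0.61 over 23 tested. The 25 were those of 51 entries with enough counts. Members near 0 in HQHF could enter through other groups such as HFD, which can pull the median down. miR-136-5p passed in 3 of the 10 fits that left out 1 library, failing without any 1 control, HFD 1 or any 1 HQHF library (highest adjusted p = 0.158). miR-127-3p from this region was at 1045 CPM in HFD 3 and at 11.8 to 37.8 CPM in the other 3 HFD libraries. miR-375-3p, of pancreatic islets and neuroendocrine cells, was at 206 CPM in HFD 3 and at 0.374 to 17.7 CPM in the others. It was 1 of 2 pancreatic miRNAs tested, and neither was called by edgeR, with 1 at an unadjusted p under 0.05 and 1 lower by DESeq2. The same liver held 41.2 CPM of Adipoq and 32.0 CPM of the fat droplet transcript Plin1, against at most 0.0735 CPM and 0.0664 CPM in the other 6, and the part of fat or other tissue in its miRNA values was not tested.

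Of 5 muscle and brown fat miRNAs tested, 1 fell, where 9.36% of all tested miRNAs did. miR-133a-3p, of skeletal and heart muscle, was at 46.4, 11.9, 10.2 and 6.50 CPM in HFD and at 2.41, 0.826 and 1.54 CPM in HQHF, and fell by 3.54 ± 1.04 (edgeR adjusted p = 0.045). miR-1a-3p was at 397, 104, 95.6 and 44.8 CPM in HFD and at 12.6, 23.8 and 13.5 CPM in HQHF (edgeR adjusted p = 0.0525). Acta1, the actin of skeletal muscle, was at 0.0658 CPM or less in these livers except for 1.24 CPM in HFD 3. miR-133a-3p was not called without control 4, HFD 1, HFD 2 or any 1 HQHF library (highest adjusted p = 0.155).

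**Figure D4:**
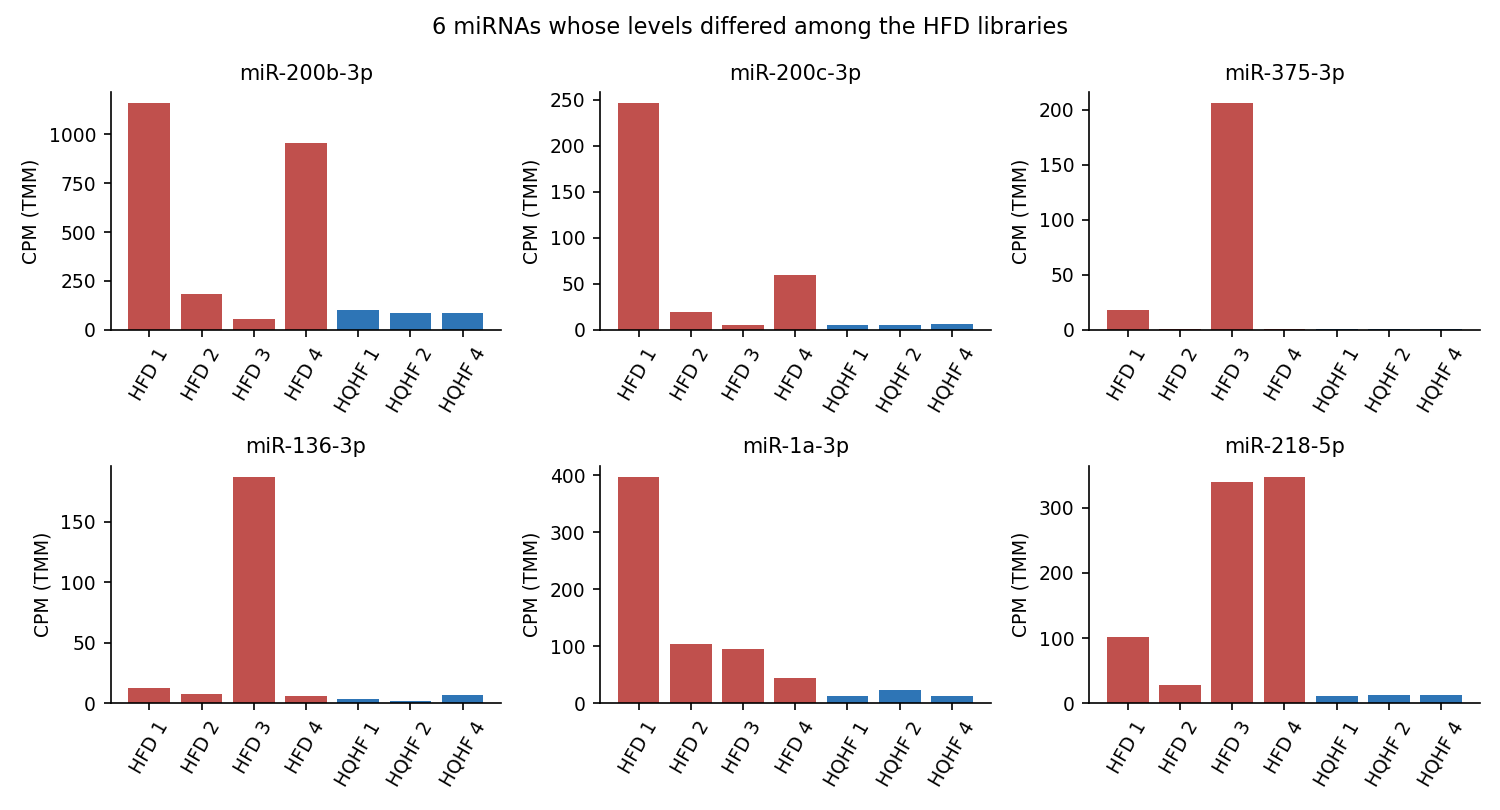
Level (CPM after TMM scaling, axes from 0) of 6 miRNAs in the 4 HFD (red) and 3 HQHF (blue) libraries. miR-200b-3p and miR-200c-3p are highest in HFD 1 and HFD 4, miR-375-3p and miR-136-3p in HFD 3, miR-1a-3p in HFD 1, and miR-218-5p in HFD 3 and HFD 4.

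miR-218-5p, which is made from hairpins in the axon guidance genes Slit2 and Slit3 and is known from endothelium, was at 101, 27.5, 339 and 347 CPM in HFD and at 11.8, 13.6 and 13.1 CPM in HQHF. It was the 1 of 6 endothelial miRNAs that fell (log2 fold change -3.99 ± 1.09, edgeR adjusted p = 0.0372), where 9.36% of all tested miRNAs did. It was highest in HFD 3 and HFD 4, and it was not called without control 4, HFD 1, HFD 4 or any 1 HQHF library (highest adjusted p = 0.128). Slit3 was highest in HFD 3, at 6.59 CPM, and Slit2 in HFD 4, at 10 CPM, and both transcripts fell (edgeR adjusted p = 0.0294 and 0.0167). miR-126a-3p, the defining endothelial miRNA, was at 28534 to 42223 CPM in HFD and 39366 to 49478 CPM in HQHF and overlapped (log2 fold change 0.28 ± 0.14, edgeR adjusted p = 0.158).

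Other lists held few or no calls. Of 6 red blood cell miRNAs none was called by edgeR or DESeq2, none had an unadjusted p under 0.05, and the median was 0.08. Under library totals 3 of the 6 were lower by edgeR with a median of -0.45, and without HFD 2, 1 was higher. miR-486a-5p, which shares its counts with miR-486b-5p, was at 22.2 to 54.3 CPM in HFD and 25.6 to 33.2 CPM in HQHF. Of 15 miRNAs of the miR-17-92 cluster and its paralogues, which drive proliferation, none was called by edgeR or DESeq2, 3 had an unadjusted p under 0.05, and the median was -0.21. Under library totals 7 of these 15 were lower by edgeR with a median of -0.75, and without HFD 3, 2 were lower. The smallest adjusted p of this list was shared by miR-106a-5p and miR-106b-5p, at log2 fold changes of -1.18 and -0.86 (edgeR adjusted p = 0.0948). Of 8 members of the miR-15 and miR-16 family, miR-15a-5p rose by 0.54 ± 0.12 (edgeR adjusted p = 0.0176) and was at -0.04 under library totals, while miR-195a-5p, highest in HFD 4, was at -1.13 (edgeR adjusted p = 0.054).

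**Figure D5:**
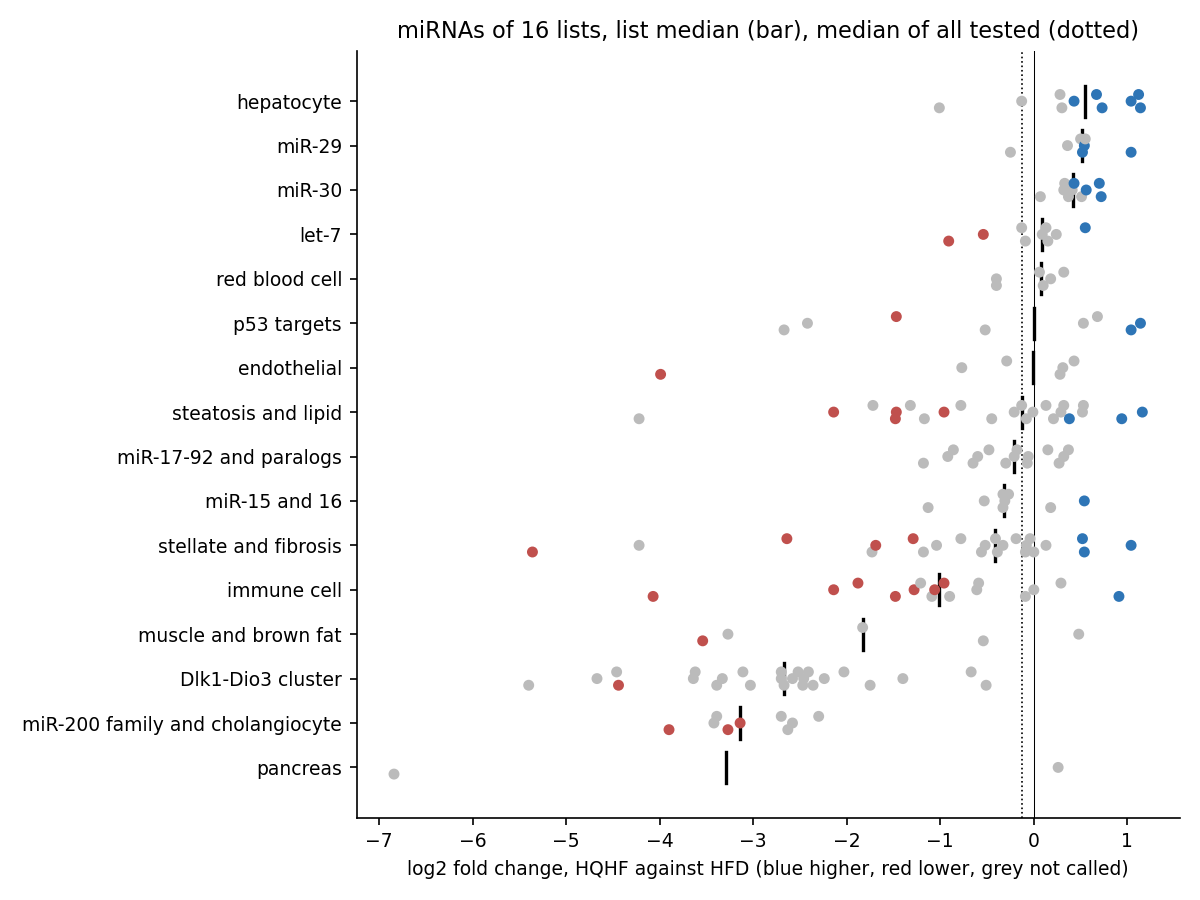
Log2 fold change of HQHF against HFD (horizontal axis) for the tested members of 16 lists (rows); blue points rose, red points fell, grey points were not called, black bars are list medians and the dotted line is the median of all tested, -0.13. Hepatocyte, miR-29 and miR-30 miRNAs lie mainly to the right, and immune, Dlk1-Dio3 and miR-200 miRNAs mainly to the left.

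Counts summed over miRNAs with a RefSeq sequence and the same seed gave 43 of 276 seed families (15.6%) that changed, 21 (7.61%) higher and 22 (7.97%) lower. The smallest p values after UGCCAAU (miR-192-3p) belonged to UACAGUA (miR-101b-3p), AACCUGU (miR-582-3p), GGCAGUG (miR-34a-5p with 3 others) and GCUUCUU (miR-107-5p with 2 others). The GGCAGUG family was at -1.56 ± 0.27 (edgeR adjusted p = 0.0147). The 3 tested miRNAs with the seed AGCACCA (miR-29) all rose, and their summed counts rose by 0.61 ± 0.13 (edgeR adjusted p = 0.0177). The summed counts of GUAAACA rose by 0.47 ± 0.14 (edgeR adjusted p = 0.0473), with miR-30a-5p, miR-30c-5p and miR-30e-5p as the tested members. miR-30b-5p and miR-30d-5p, which did not pass singly at 0.32 and 0.07, had no RefSeq sequence and were not in this sum. The let-7 seed GAGGUAG was not among the families called. The count was 26 without HFD 1, 72 without HFD 3 and 4, 3 and 15 without HQHF 1, 2 and 4.

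The balance of the 5p and 3p strands of 1 hairpin was compared for 118 hairpins by limma on log2 ratios. None (0%) was called, while 25 had an unadjusted p under 0.05, and the lowest adjusted p was 0.0505, shared by several. No other tool was run on these ratios. The count was 15 without control 4 or HFD 4 and 5 without HFD 3. The log2 ratio of 5p to 3p was 6.20 in HFD and 5.30 in HQHF for miR-195a, and 1.82 and 3.10 for miR-455. For miR-455 the control libraries were at 4.23, 3.77 and 4.28.

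Several groups of neighbouring hairpins had most strands called in 1 direction. Hairpins within 10 kb of each other on 1 strand in RefSeq were grouped. Besides the 4 of 4 for miR-192 and miR-194, 3 of 4 strands of miR-30c-1 and miR-30e rose, 3 of 4 of miR-199a and miR-214 fell, and 2 of 3 of miR-132 and miR-212 fell. Among the miR-199a and miR-214 strands, miR-199a-3p shares its counts with miR-199b-3p. Of the miR-23a cluster 2 of 4 strands fell (miR-23a-3p by 0.67, miR-27a-5p by 1.34), while of the miR-23b cluster 1 of 4 rose (miR-27b-3p). For let-7e and miR-125a 2 of 4 fell, both of them let-7e strands. Of 11 tested host genes of the miRNAs picked by the naming rule, 4 were called, Rcl1, Evl, Slit2 and Slit3, where 18.9% of all 13832 long RNA genes were (7.85% higher and 11.1% lower). Without any 1 HQHF library 2 were called, Rcl1 and Evl. Among the hosts of other miRNAs described here, read after the values were seen, Pank1, the pantothenate kinase gene that holds Mir107, rose by 1.41 ± 0.21 (edgeR adjusted p = 0.004). Wdr82 (let-7g), Aopep (miR-27b) and Mrc1 (miR-511) did not pass, at log2 fold changes of 0.10, 0.30 and 0.46.

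Long RNA from the same livers was read for 16 textbook targets of 4 of these miRNAs, chosen after the miRNA values were known. Over all long RNA genes 11.1% fell and 7.85% rose. For miR-29, 5 of 5 fell: Col1a1, Col3a1, Col4a1, Eln and Fbn1, all matrix proteins. Col1a1, the main fibrillar collagen, was at 97.9, 35.6, 17.3 and 144 CPM in HFD 1 to 4 and at 1.87, 2.01 and 8.08 CPM in HQHF 1, 2 and 4. It fell by 4.20 ± 0.89 (edgeR adjusted p = 0.016), to near the 1.87 to 4.44 CPM of the control livers. Without HQHF 1 or without HQHF 2 its adjusted p was 0.0693 or 0.07, and none of the 5 passed in those fits (edgeR). Without HQHF 4, 3 of the 5 were lower. Without HFD 1, with the 7 HFD and HQHF libraries alone, or without a filter on low counts, 4 of the 5 were. Whether the rise of miR-29 bears on these transcripts was not tested.

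For miR-122, Slc7a1, an arginine transporter, was at 6.34, 6.86, 17.7 and 8.96 CPM in HFD and at 1.78, 1.56 and 1.75 CPM in HQHF. It fell by 2.55 ± 0.36 (edgeR adjusted p = 0.00372). Aldoa, the muscle-type aldolase, fell by 0.68 ± 0.21 (edgeR adjusted p = 0.0442) but was not called without HFD 1, HFD 3, HFD 4, HQHF 1 or HQHF 2 (adjusted p = 0.0648, 0.0674, 0.0803, 0.106 and 0.151), and Ndrg3 was at -0.07 (edgeR adjusted p = 0.796).

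For miR-34a, Sirt1 was at 8.53, 7.90, 7.19 and 6.53 CPM in HFD and at 7.01, 8.74 and 6.64 CPM in HQHF and overlapped (log2 fold change -0.01 ± 0.19, edgeR adjusted p = 0.966). Met, the receptor of hepatocyte growth factor, rose by 0.54 ± 0.13 (edgeR adjusted p = 0.0176) and was at 0.00 under library totals (adjusted p = 0.994), while Ccnd1, cyclin D1, fell by 1.88 ± 0.41 (edgeR adjusted p = 0.0154) and Notch1 was at -0.44. Neither Met nor Ccnd1 was called without HQHF 1 (adjusted p = 0.0505 and 0.0697) or without HQHF 2 (0.07 and 0.0532). For miR-33, none of Abca1, Cpt1a, Crot and Hadhb passed, with log2 fold changes of -0.46, 0.80, 0.66 and 0.43. Abca1 was at 279, 308, 175 and 333 CPM in HFD and at 167, 154 and 274 CPM in HQHF.

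The normal diet libraries place these changes, though the 2 contrasts share the HFD libraries and so are not independent. Control 1 held 593 CPM of Pnlip and 362 CPM of Cela1, transcripts of the exocrine pancreas, and 132 CPM of the pancreatic miR-216a-5p, per library total. The other libraries in the fit held at most 3.31, 11.8 and 2.26 CPM. The part of pancreas in the control values was not tested. For miR-34a-5p HFD minus control was 2.21 (edgeR adjusted p = 0.00534) and HQHF minus HFD -1.47. For miR-582-3p the values were 4.20 (edgeR adjusted p = 0.00608) and -4.08, and for miR-192-5p -0.98 (edgeR adjusted p = 0.0148) and 1.14. For miR-33-5p they were 0.04 (edgeR adjusted p = 0.923) and 1.16, and for miR-30c-5p -0.07 (edgeR adjusted p = 0.74) and 0.70. The mean of miR-30c-5p was 4280 CPM in control, 4080 CPM in HFD and 6620 CPM in HQHF. Its HQHF minus control difference of 0.63 did not pass (edgeR adjusted p = 0.0743), and under library totals HQHF minus HFD was 0.10 (adjusted p = 0.653). For miR-224-5p, at 28.4, 23.1, 32.2 and 42.6 CPM in HFD, 8.77 to 9.26 CPM in HQHF and 10.8 to 28.7 CPM in control, HFD minus control was 0.49 (edgeR adjusted p = 0.296) and HQHF minus HFD -1.81.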

How the data were processed

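Small RNA and long RNA libraries were made from total liver RNA of 12 mice, 4 per group, extracted with TRIzol. The deposited values are raw counts per mature miRNA and per gene, whole numbers made by the authors; the submitters' processing notes name HISAT2, RSEM and GRCm39, without saying which step each served, and the miRNA reference is not given in the sources used here. Counts were tested with edgeR 4.0.16 in R 4.3.3 (TMM scaling, filterByExpr, robust quasi-likelihood fit, Benjamini-Hochberg adjustment) on 10 libraries, 3 control, 4 HFD and 3 HQHF. Strand ratios used limma 3.58.1 on log2((5p + 0.5)/(3p + 0.5)), and DESeq2 1.42.0 was an alternative. CPM values are TMM-scaled unless given per library total. TMM factors ran from 0.707 to 1.61. RefSeq held a sequence for 348 of the 406 tested miRNAs. The scripts were tested on simulated data.

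miRNAs named were, by rule, the 15 with the smallest p in each direction at a mean of 10 CPM or more in the higher group, the 10 most abundant, their other strands, 12 chosen names and the 2 smallest p of each list; others named were chosen after their values were seen. The libraries, lists and tests were chosen with earlier results of these data known. Each library is 1 mouse. No label pairs the mice by replicate number, and the main fit used no pairing.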

Additional observations from a re-analysis of the deposited data

Results flagged for a closer look

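Among 78 named miRNAs, 14 had 1 of the 4 HFD libraries far from the other 3 by Dixon's test at its 95% level, where chance gives about 1 in 20 for each. HFD 3 was the high library for 6 of them. It held 187 CPM of miR-136-3p, 21.5 CPM of miR-136-5p, 36.4 CPM of miR-381-3p and 206 CPM of miR-375-3p, where the other 3 reached at most 12.5, 3.45, 7.35 and 17.7 CPM. It also held 2317 CPM of miR-10a-5p and 93.3 CPM of miR-10a-3p, against at most 1193 and 42.9 CPM. HFD 4 was high for miR-195a-5p at 1267 CPM, miR-199a-5p at 2617 CPM, miR-199b-5p at 257 CPM and miR-34a-3p at 2.21 CPM, with the next library at 515, 890, 62.6 and 1.56 CPM. HFD 1 was high for both muscle miRNAs, at 397 CPM of miR-1a-3p and 46.4 CPM of miR-133a-3p. HFD 2 was high for miR-101a-3p at 11554 CPM and the entry miR-101c at 11553 CPM, which are 1 measurement.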

How the results depend on the processing

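The 81 changed miRNAs became 128 with DESeq2, 147 with library totals, 25 without a filter on low counts (1177 tested), 40 with the 7 HFD and HQHF libraries alone, 2 with all 12 libraries, 158 at an adjusted p under 0.1 and 46 with at least a 2-fold change. Leaving out 1 library in turn gave 3 to 107: 3, 4 and 9 without HQHF 1, 2 and 4, and 17 without HFD 1. In each of these fits all tested calls kept their direction. The 43 seed families became 75 with DESeq2, 4 with 12 libraries and 3 to 72 with 1 library left out. The 0 strand ratios became 1 with a pseudocount of 5, 6 at 10 CPM or more in both strands, 12 with 7 libraries and 0 to 15 with 1 left out. The 4 host genes became 9 with library totals and 2 to 5 with 1 left out.

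No label pairs same-numbered mice. Correlations of their deviations from the group means were 0.08, 0.29 and -0.26, which cannot settle whether they were paired. With the replicate number as a block, 55 miRNAs, 23 seed families, 1 strand ratio and 2 host genes were called, and Sirt1 was at 0.01.

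Library totals turned the sign of let-7a-5p (-0.34), let-7f-5p (-0.41), let-7i-3p (-0.47), miR-101a-5p (-0.23), miR-122-3p (-0.21), miR-126a-3p (-0.30), miR-126a-5p (-0.26), miR-148a-3p (-0.23), miR-148a-5p (-0.26), miR-15a-3p (-0.21), miR-15a-5p (-0.04), miR-16-5p (-0.40), miR-21a-5p (-0.24), miR-29a-3p (-0.10), miR-29c-5p (-0.08), miR-30e-3p (-0.07), miR-30e-5p (-0.01), miR-33-3p (-0.06), Nfyc (-0.49) and Hadhb (-0.15). With 12 libraries miR-122-3p (-0.07), miR-148a-3p (-0.04), miR-195a-3p (0.17), miR-21a-5p (-0.05) and miR-486a-5p (0.09) turned. Sirt1 was at 0.02 with DESeq2 and 0.04 with 7 libraries, and Egfl7 at 0.01 with 7. With 1 library left out, miR-21a-3p ran from -0.45 to 0.11, let-7i-3p from -0.07 to 0.33, miR-195a-3p from -0.54 to 0.20, Sirt1 from -0.14 to 0.07, Ndrg3 from -0.17 to 0.03 and Egfl7 to 0.10. The let-7 ratio, with alternatives chosen after seeing the data, was 1.18 with 12 libraries and 1.39 to 1.58 with 1 left out. The cause of these shifts was not tested. Depth limits the rare miRNAs: over the HQHF libraries miR-582-5p rested on 10 reads and miR-708-5p on 4.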
